A study of Sus scrofa with 3 samples.

Results

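Small RNA of 2 porcine skeletal muscles was compared, the psoas major muscle (PMM), taken as the intermediate fiber type, and the longissimus dorsi muscle (LDM), taken as the white fiber type. Every row of the conserved miRNA table was included, with 152 listed miRNAs that match mammalian precursors from species other than pig. After identical mature sequences were merged, 145 remained, of which 130 had a read in PMM or LDM and 108 had at least 3 reads over the series' 3 libraries and were tested. These are 2 of the 3 libraries of the series. The remaining one is of the peroneal longus (PL), the red fiber type. Both muscles were taken from female Landrace pigs of 210 days, and both libraries came from an earlier study by the same authors of the same pigs. Each muscle is represented by 1 library. The protocol given with every library, written for PL, describes RNA of 3 pigs pooled in equal amounts. The spread between animals can thus not be estimated, and every difference below is one between these libraries.

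White fibers contract fast and draw on glycolysis, while intermediate fibers combine fast contraction with a higher oxidative capacity. A miRNA is cut from 1 arm (5p or 3p) of a hairpin precursor, and bases 2 to 8 of the mature strand, the seed, pair with target mRNAs and lower their translation or stability. The miRNAs best known from skeletal muscle, such as miR-1, miR-133, and miR-206, are already annotated in the pig. They belong for the most part to the table of known porcine miRNAs, which was not analysed here. The conserved miRNAs thus give a view of less abundant miRNAs beside the main muscle miRNAs.

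The sequences of the 12 miRNAs that differed between the libraries are shown as the table lists them, as DNA letters 5′ to 3′ with the seed in capitals, since the seed decides which of them can be grouped by target. The first 8 were higher in PMM.
miR-6529-5p: gAGAGATCagaggcgcagagt
miR-660-5p: tACCCATTgcatatcggagttg
miR-34b-3p: aATCACTAactccactgccatc
miR-485-3p: gTCATACAcggctctcctctct
miR-409-3p: gAATGTTGctcggtgaacccct
miR-219-3p: aGAATTGTggctggacatctgt
miR-301a-3p: cAGTGCAAtagtattgtcaaagc
miR-216b-5p: aAATCTCTgcaggcaaatgtga
The next 4 were higher in LDM.
miR-1-3p: tGGAATGTaaagaagtgtgtat
miR-33a-5p: gTGCATTGtagttgcattgca
miR-6529-3p: cCTGTGCCttttacctcttta
miR-2904-5p: aGCGCCGCgggagcctcggttggcc
No seed was shared among these 12. Of those higher in PMM, 8 of 8 were 20 to 24 nt long, as were 94 of all 108 tested. The GC content of miR-2904-5p was 80%, against a median of 45.5% over all miRNAs tested. Of all 152 rows listed, 42 are 1 base away from their listed precursor, among them the sequences of 3 of these 12. They are A17G for miR-1-3p, C20T for miR-660-5p, and T13G for miR-409-3p (base of the precursor, position counted from 1 at the miRNA's 5′ end, base in the table).

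The conserved miRNAs were a small part of both libraries. They held 16286 reads in PMM and 12463 in LDM, or 0.0882% and 0.0750% of the raw reads given by the study (18.46 M and 16.62 M). Levels are given as RPM, the reads per 1 M raw reads. A level of 3 reads, taken as the limit where no read was listed, equals 0.163 RPM for PMM and 0.181 RPM for LDM. As molecules were not counted, the intervals cover counting error only. miR-26b-5p alone took 62.7% of the conserved reads in PMM and 62.9% in LDM. As a whole, the conserved reads were 1.18-fold higher in PMM per raw read (95% interval 1.15 to 1.20), and the same ratio was found without miR-26b-5p (1.18, 1.14 to 1.23).

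A miRNA was called when the Bonferroni-adjusted p of the Audic-Claverie, Fisher's exact, and chi-squared tests was under 0.001 in each and its RPM differed by over 1.5-fold. By this rule 8 of 108 miRNAs were higher in PMM, which is 7.41% of those tested, and 4 were higher in LDM (3.7%), together 11.1%. With both libraries having reads for 91 miRNAs, the median log2 fold (PMM over LDM) of these was 0.53, and 58 of the 91 were higher in PMM. The library total bears on this balance. The median was 0.29 with the summed conserved reads as total, 0.05 when size factors were taken by median of ratios, and 0.03 for the trimmed mean of M values (TMM). The split of calls was then 5 in PMM and 4 in LDM with the summed conserved reads or the size factors, and 4 and 4 with TMM. Against raw reads, each log2 fold dropped by 0.23 with the summed conserved reads and dropped by 0.49 with TMM. Since whole muscle was sequenced, fewer cells of a type and less RNA per cell cannot be told apart.

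**Figure D1:**
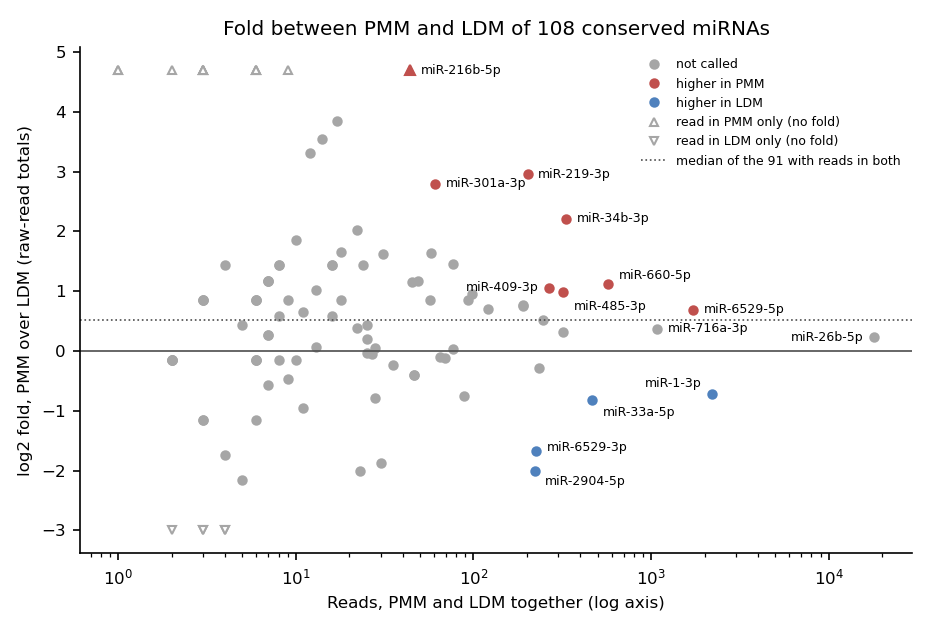
Reads of each of the 108 miRNAs tested in PMM and LDM together (x, log axis) against its log2 fold, PMM over LDM, with raw-read totals (y). Triangles stand at fixed heights for miRNAs with reads in 1 of both libraries. The dotted line is the median of 0.53, and the 4 miRNAs higher in LDM lie below it at 221 reads or more each, while the uncalled points spread widest at low reads.

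Among the called miRNAs, the largest differences in favor of PMM were those of miR-216b-5p, miR-219-3p, miR-301a-3p, and miR-34b-3p, none of which is known mainly as a muscle miRNA. miR-219-3p comes from a precursor known for its role in the maturation of oligodendrocytes. It had 181 reads in PMM (9.80 RPM) and 21 in LDM (1.26 RPM), a 7.76-fold difference (95% interval 4.93 to 12.8). The table places it on chromosome 1 from 302806847 to 302806943 on the minus strand (Sscrofa10.2, as for all positions here). An entry for miR-2964a lies on the plus strand of the same site, and miR-2964a-5p shares 20 nt with the reverse complement of miR-219-3p. This entry had 6 reads in PMM and 3 in LDM, and miR-2964a-3p had 1 and 4, so the strand of miR-219 held more reads of the site in both libraries.

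miR-34b-3p is the 3p arm of a member of the miR-34 family, which is induced by p53 and is abundant in ciliated epithelium. It had 278 reads in PMM (15.1 RPM) and 54 in LDM (3.25 RPM), 4.64-fold more in PMM (3.45 to 6.32), and lies on chromosome 9 from 44167411 to 44167516 on the minus strand. Its other arm, miR-34b-5p, had 24 and 7 reads, a 3.09-fold difference (1.29 to 8.48) that was not called. Both arms together had 302 reads in PMM and 61 in LDM, and the 5p share was 7.95% and 11.5%, respectively, with overlapping intervals. The related miR-449a-5p, whose seed is also that of miR-34b-5p (GGCAGTG), had 4 reads in PMM and 3 in LDM.

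miR-301a-3p belongs to the miR-130 family, whose seed AGTGCAA was found in 3 miRNAs tested.
miR-454-3p: tAGTGCAAtattgcttatagggt
miR-301b-3p: cAGTGCAAtgatattgtcaaagc
miR-301a-3p had 54 reads in PMM (2.93 RPM) and 7 in LDM (0.421 RPM), thus 6.95-fold more in PMM (3.15 to 18.1). The reads of miR-301b-3p, with 11 against 1, were in the same direction (9.90-fold, 1.44 to 426). In contrast, miR-454-3p had 0.813 RPM for PMM and 0.602 RPM for LDM, with an interval that includes 1 (1.35-fold, 0.568 to 3.36). It is listed on the same strand as miR-301a (37079084 to 37079169), with both in a span of 9098 bases, and both lie in SKA2 in human. The table gives chromosome 11 for them, which is doubtful. Of 5 miRNAs listed on chromosomes 11 to 17 whose host or neighbor gene is known, 0 were on the chromosome where the newer Sscrofa11.1 assembly places that gene, against 7 of 7 listed on other chromosomes. The 3 miRNAs of this seed together had 80 reads in PMM against 18 in LDM, a 4.001-fold excess in PMM (2.38 to 7.09). Of these reads, miR-301a-3p, the called miRNA for which the seed was taken up, gave 54 and 7. With TMM as the library total miR-301a-3p was no longer called (log2 fold 2.30, against 2.80 with raw reads).

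miR-216b-5p, which is known best from the pancreas, was the only called miRNA with no read in 1 of both libraries. It had 44 reads in PMM (2.38 RPM) and 0 in LDM, a 13.2-fold difference with LDM set at 3 reads. The exact interval of the fold, taken with 0 reads in LDM, starts at 10.3. The other arm, miR-216b-3p, had 3 reads in PMM and 0 in LDM, too few to show a difference. The table lists it on chromosome 3 from 90047313 to 90047398 on the plus strand.

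**Figure D2:**
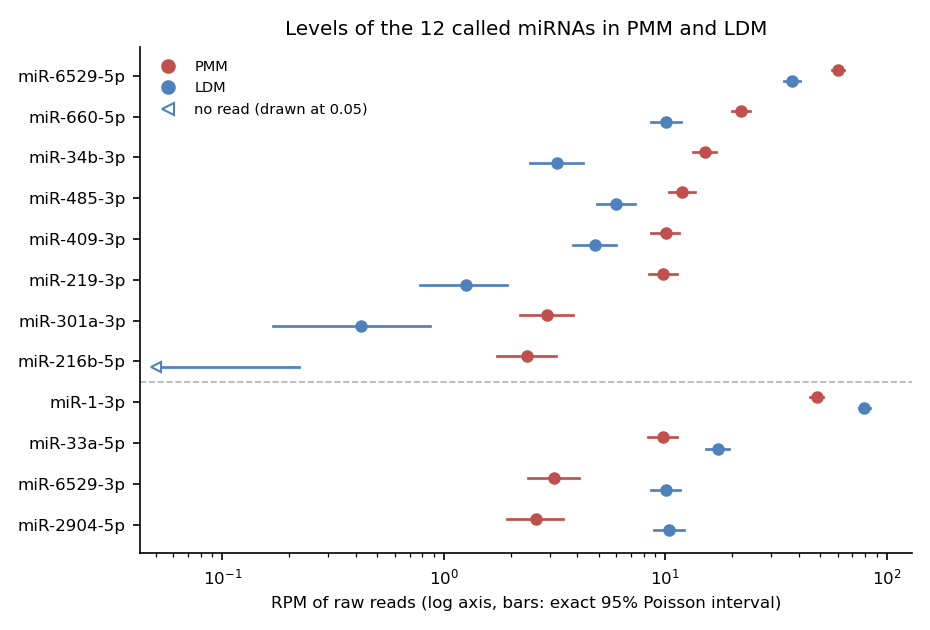
Level of each of the 12 called miRNAs in RPM of raw reads (x, log axis) in PMM (red) and LDM (blue), with exact 95% Poisson intervals from counting error only. Above the dashed line are the 8 higher in PMM, of which miR-216b-5p had no read in LDM and is drawn at the left edge, and below it the 4 higher in LDM.

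The other miRNAs called higher in PMM differed by 1.61-fold to 2.18-fold. miR-660-5p is encoded on the X chromosome in a cluster with miR-188, which in human lies within CLCN5, the gene of a chloride/proton exchanger. miR-660-5p (X from 48640809 to 48640903, plus strand) had 406 reads in PMM (21.99 RPM) and 168 in LDM (10.1 RPM), a 2.18-fold difference (1.81 to 2.62). miR-188-5p had 32 and 13 reads, 2.22-fold more in PMM (1.13 to 4.60), and was not called. The minor arm miR-660-3p had 6 and 2 reads. Of the 4 miRNAs of this cluster that were tested, 1 was called, beside 8 of 108 (7.41%) over all. The 3 with reads in both libraries had a median log2 fold of 1.15 (0.65 with TMM), against 0.53 over all 91 (0.03 with TMM). miR-660-5p was called under each of the 5 library totals tried, although its log2 fold ranged from 0.63 to 1.12.

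miR-485-3p and miR-409-3p are of the DLK1-DIO3 region, an imprinted domain with one of the largest miRNA clusters of mammals. The miRNAs of this cluster are expressed from the maternal chromosome. In sheep, a variant in this domain causes muscular hypertrophy of the hindquarters. miR-485-3p had 220 reads in PMM (11.9 RPM) and 100 in LDM (6.02 RPM), 1.98-fold more in PMM (1.56 to 2.53). miR-409-3p had 185 reads (10.0 RPM) and 80 (4.81 RPM), 2.08-fold more in PMM (1.59 to 2.74). Both are listed on unplaced scaffolds, and neither was called with any of the other 4 library totals. miR-485-5p, the other arm of miR-485, had 62 and 31 reads, and the 5p share of the precursor was 21.99% in PMM and 23.7% in LDM.

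Of the 21 miRNAs tested from the list for this region, 2 were called higher in PMM and 0 higher in LDM, beside 8 (7.41%) and 4 (3.7%) of all 108. The list does not hold miR-154b, whose 5p arm had 67 reads in PMM and 31 in LDM and whose 3p arm had 6 and 0. Of the 20 on the list with reads in both libraries, 15 were higher in PMM by value and 5 in LDM, against 58 and 33 over all 91. Their median log2 fold was 0.85, beside 0.53 over all. miR-655-3p had 125 reads in PMM and 66 in LDM (1.71-fold, 1.26 to 2.33), and miR-411c-3p had 58 and 19 (2.75-fold, 1.61 to 4.89). The 5p arm of the latter had 16 reads in PMM and 1 in LDM (14.4-fold, 2.24 to 604). miR-539-5p was at 38 and 19 reads. In contrast, miR-376b-3p had 21 reads in PMM and 25 in LDM, so its level was lower in PMM by value (0.756-fold, 0.403 to 1.41), whereas miR-376d-3p, which has the same seed TCATAGA, had 12 and 4. Together the list had 840 reads in PMM against 397 in LDM, a 1.90-fold difference (1.69 to 2.15). With TMM the median log2 fold of the list was 0.35, beside 0.03 over all, and 13 of the 20 were higher in PMM.

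In LDM, the miR-1-3p entry was second to miR-26b-5p. miR-1 is the most abundant miRNA of striated muscle and promotes myoblast differentiation. The entry had 892 reads in PMM (48.3 RPM) and 1318 in LDM (79.3 RPM), 1.64-fold more in LDM (1.51 to 1.79). It lies on chromosome 6 from 99481915 to 99482025 on the plus strand. Since its listed sequence carries the A17G difference given above, its reads cannot be taken as the level of miR-1 itself. Which RNA they come from was not tested. miR-660-5p and miR-409-3p also differ from their listed precursor by 1 base, and what this means for their levels was not tested. miR-1-5p, the other arm, had 35 and 34 reads and was not called (0.927-fold in PMM over LDM, 0.561 to 1.53). The 5p share of the precursor was 3.78% in PMM and 2.51% in LDM, with an odds ratio of 1.52 (0.914 to 2.53), so that a difference between the arms was not detectable at this depth.

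Of the skeletal muscle list, miR-208a was the only other precursor tested, and it is encoded in a cardiac myosin heavy chain gene. miR-208a-3p had 13 reads in PMM and 1 in LDM (11.7-fold, 1.76 to 497), which was not called, and miR-208a-5p had 3 reads in PMM and 0 in LDM.

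miR-33a-5p lies in an intron of SREBF2 in human and represses the cholesterol exporter ABCA1 and genes of fatty acid oxidation. It had 180 reads in PMM (9.75 RPM) and 286 in LDM (17.2 RPM), 1.76-fold more in LDM (1.46 to 2.14). The table lists it on an unplaced scaffold. No other miRNA of the lipid and cholesterol list was tested. Of the glucose and insulin list, miR-96-5p had 4 reads in PMM and 7 in LDM, and miR-375-3p had 5 in each, so neither differed at this depth.

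**Figure D3:**
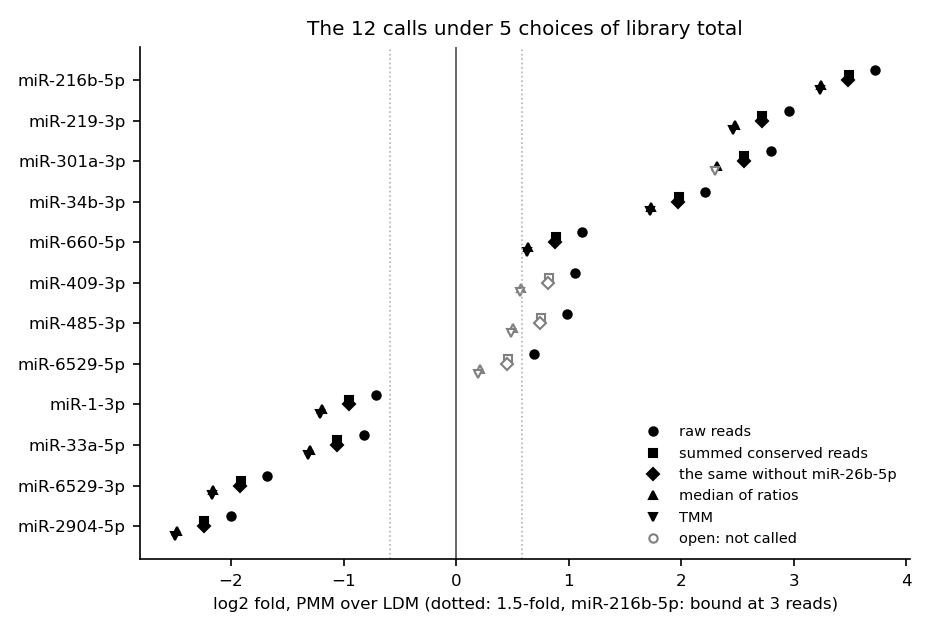
log2 fold (PMM over LDM, x) of the 12 called miRNAs under 5 choices of library total, with filled marks where the miRNA was called and open ones where it was not. The 4 miRNAs higher in LDM stayed called under each total, whereas miR-6529-5p, miR-485-3p, and miR-409-3p were called with raw reads alone.

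miR-6529 was called in both directions, 1 for each arm. This miRNA is named after a precursor from cattle. It is listed on chromosome 12 from 149441291 to 149441369 on the plus strand. This position lies past the last gene that Sscrofa11.1 places on chromosome 12, so the doubt on chromosome numbers given above holds here too. miR-6529-5p had 1112 reads in PMM (60.2 RPM) and 620 in LDM (37.3 RPM), 1.61-fold more in PMM (1.46 to 1.78). miR-6529-3p, however, had 58 reads in PMM (3.14 RPM) and 167 in LDM (10.0 RPM), 3.20-fold more in LDM (2.36 to 4.39). The 5p arm was thus 95.04% of the reads of the precursor in PMM (95% Clopper-Pearson interval 93.6% to 96.2%) and 78.8% in LDM (75.8% to 81.6%). The odds of a 5p read were 5.16-fold higher in PMM (exact interval 3.74 to 7.20). This ratio does not depend on the library total, and both arms share 2 bases in a row at most. The call of the 5p arm was lost with the other 4 totals (log2 fold of 0.20 to 0.46), while the 3p arm stayed called with each.

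The share of the arms was compared at 14 precursors with at least 10 reads on each arm, and the interval of the odds ratio excluded 1 at 4 of them. miR-590, which lies in EIF4H in human, had 111 reads on the 5p arm and 152 on the 3p arm in PMM, against 122 and 95 in LDM. Its 5p share was 42.2% in PMM (36.2% to 48.4%) and 56.2% in LDM (49.3% to 62.9%), so that the more abundant arm differed between the libraries (odds ratio 0.569, 0.389 to 0.831). Neither arm was called by itself. At miR-26b the 5p arm was 99.7% of the reads in PMM and 99.3% in LDM (1.97, 1.26 to 3.12), a ratio that rests on 35 and 53 reads of miR-26b-3p. At the other 10 precursors the interval included 1, among them miR-330, with a 5p share of 5.61% and 11.3% (0.470, 0.192 to 1.10).

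**Figure D4:**
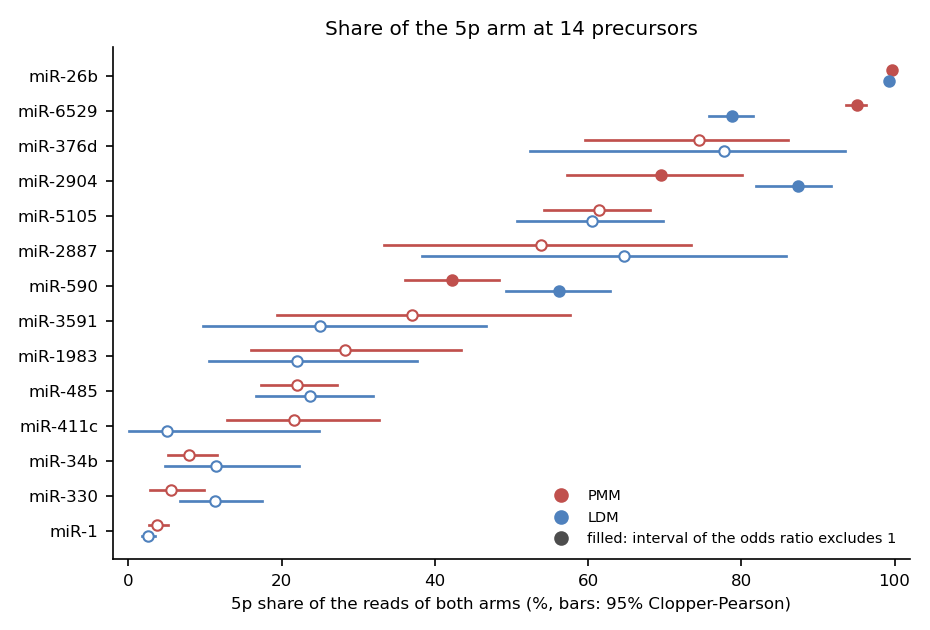
5p share of the reads of both arms (x, %) at 14 precursors in PMM (red) and LDM (blue), with 95% Clopper-Pearson intervals. Filled points mark the 4 precursors where the interval of the odds ratio excludes 1, and miR-6529, with 95.04% and 78.8%, and miR-590, with 42.2% and 56.2%, stand out among those outside the chromosome 6 window.

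miR-2904-5p, also named after a cattle precursor, had 48 reads in PMM (2.60 RPM) and 173 in LDM (10.4 RPM), 4.003-fold more in LDM (2.89 to 5.63). It lies on chromosome 6 from 866740 to 866808 on the minus strand, in a window of 4313 bases that holds 5 listed precursors. No other entry of the window was called, and their folds lay on both sides of 1. miR-716a-3p, the most abundant of them, had 639 reads in PMM and 445 in LDM (1.29-fold more in PMM, 1.14 to 1.46). miR-5105-5p had 124 and 66 reads (1.69-fold, 1.24 to 2.32), and miR-5105-3p had 78 and 43 (1.63-fold, 1.11 to 2.43).
miR-5105-5p: gCCCAAGTccttctgatcgaggccc
miR-5105-3p: aGTCCTTCtgatcgaggccc
As these sequences show, the 3p entry of miR-5105 is contained in the 5p entry (20 nt in common), so they are not arms of a hairpin. The entries of miR-2887 share 17 nt and those of miR-2904 share 8 nt, while at the other 11 precursors compared the arms shared 6 nt or less. The shift between the entries of miR-2904, with 69.6% of the reads on the 5p entry in PMM and 87.4% in LDM (odds ratio 0.332, 0.162 to 0.681), is thus one between overlapping pieces of RNA. miR-2904-3p had 21 and 25 reads (0.756-fold in PMM over LDM, 0.403 to 1.41), and miR-2887-5p had 14 and 11 (1.15-fold, 0.483 to 2.79). miR-6087-3p, with 3 and 4 reads, and miR-6087-5p, with 1 and 2, were higher in LDM by value. The other 2 entries of the window, miR-2887-3p and miR-716a-5p, had 12 reads or less in each library. Without the window 3 miRNAs were called higher in LDM and 8 in PMM.

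Of the miRNAs with at least 100 reads over both libraries, 10 of 18 were called. Among these 18, the 5 with the fold nearest to 1 were miR-26b-5p, miR-590-5p, miR-330-3p, miR-716a-3p, and miR-590-3p. miR-26b-5p had 10208 reads in PMM (553 RPM) and 7833 in LDM (471 RPM), a 1.17-fold difference (1.14 to 1.21), which passed the 3 tests but not the fold threshold. It was lower in PMM by value with any of the other 4 totals. miR-330-3p had 185 and 134 reads, with an interval that included 1 (1.24-fold, 0.990 to 1.56). Of the 10 most abundant miRNAs of each library 6 were the same, and 4 of those of PMM (miR-34b-3p, miR-485-3p, miR-409-3p, and miR-219-3p) were replaced in LDM by miR-33a-5p, miR-2904-5p, miR-6529-3p, and miR-590-5p.

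Since whole muscle holds other cells besides fibers, lists of miRNAs known from other cell types were examined beside the calls. Of 7 miRNAs of the epithelial list 3 were tested, and their sum was 78 reads in PMM and 32 in LDM (2.19-fold, 1.44 to 3.42), with 0 called. miR-200c-3p had 45 and 13 reads (3.12-fold, 1.65 to 6.30), and miR-141-3p, which lies next to it on chromosome 5, had 18 and 6 (2.70-fold, 1.03 to 8.31). In contrast, miR-200b-3p, with the same seed as miR-200c-3p (AATACTG), had 15 and 13 (1.04-fold, 0.461 to 2.37). In the neural list 3 of 9 were tested, all higher in PMM by value, beside 58 of the 91 with reads in both libraries over all. Of these 3, only miR-219-3p had reads in both, and 1 was called. Beside miR-219-3p, miR-153-3p had 9 reads in PMM and 0 in LDM (2.70-fold with LDM set at 3 reads, exact interval from 1.78). miR-138-5p had 6 and 0 (1.80-fold in the same way, exact interval from 1.06). For blood cells, miR-223-3p, known from myeloid cells, had 41 reads in PMM and 36 in LDM (1.03-fold, 0.639 to 1.65). Of the endothelial list no member was tested. The defining miRNAs miR-124, miR-9, miR-205, miR-451, and miR-126 were not among the miRNAs tested. The epithelial sum was thus higher by value in PMM, as was miR-34b-3p. The neural list includes miR-219-3p, which held 181 of the list's 196 reads in PMM and all 21 in LDM. The direction of that list is therefore set by miR-219-3p itself. The part of other cell types in these differences was not tested.

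**Figure D5:**
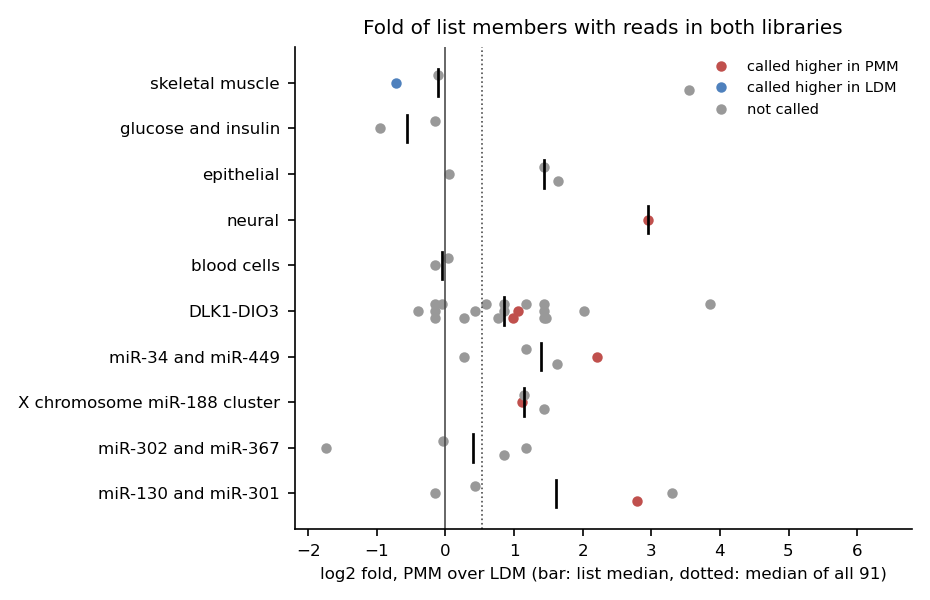
log2 fold, PMM over LDM, of list members with reads in both libraries (x), 1 point for each miRNA, with a bar at the median of the list. The dotted line is the median of all 91 miRNAs (0.53). The DLK1-DIO3 points center at 0.85 with 5 of 20 below 0, and those of the skeletal muscle list fall on both sides of 0.

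Beside the miRNAs with reads in both, 12 had reads in PMM only and 5 in LDM only. Those of PMM with at least 5 reads were miR-216b-5p, miR-153-3p, and miR-138-5p, given above, and miR-154b-3p and the miR-26a-5p entry with 6 reads each. The listed sequence of the latter has the seed CTCGTTC and not the TCAAGTA of miR-26b-5p. Its reads thus do not give the level of miR-26a, which the study reports as highly expressed in PL. The 5 of LDM had 4 reads at most. With 3 reads or less, as most of these had, no difference could be detected at this depth. PMM was also sequenced deeper, although thinning its reads to the depth of LDM left the count of either kind close to this (12 and 6). miR-302a-3p, which is known from embryonic stem cells, had 13 and 12 reads. Its sequence is also listed for miR-302b-3p and miR-302d-3p, so these reads cannot be assigned to 1 of them. The miR-302 and miR-367 list of 4 tested miRNAs summed to 21 reads in PMM and 18 in LDM (1.05-fold, 0.533 to 2.09). Of the 91 miRNAs with reads in both libraries, 29 were higher in LDM by value without being called, such as miR-1842-5p with 7 and 23 reads (3.65-fold, 1.52 to 10.1), miR-488-3p with 5 and 18 (3.999-fold, 1.43 to 13.8), and miR-26b-3p with 35 and 53 (1.68-fold, 1.08 to 2.66). These were named after their values were seen.

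PL gives a further level for the called miRNAs, although it was sequenced apart from PMM and LDM, so its muscle type and its sequencing cannot be told apart. The 4 miRNAs called higher in LDM were lower in PL than in PMM by value, as were 59 of all 108 tested (54.6%). For miR-2904-5p the intervals of PL (0.835 to 2.56 RPM) and PMM (1.92 to 3.45 RPM) overlapped. Those higher in PMM had no common place by value, with PL below both for 4, above both for 2 (miR-660-5p and miR-301a-3p), and between for 2 (miR-409-3p and miR-216b-5p). The intervals of PL and PMM overlapped for miR-660-5p (20.2 to 26.6 and 19.9 to 24.2 RPM) and miR-409-3p (7.70 to 11.8 and 8.63 to 11.6 RPM). Those of PL and LDM overlapped for miR-6529-5p (29.1 to 36.6 and 34.4 to 40.4 RPM) and miR-216b-5p (0.119 to 1.12 and 0 to 0.222 RPM). The place of PL is thus not settled for these miRNAs. The level of miR-301a-3p was 6.11 RPM for PL, followed by 2.93 RPM for PMM and 0.421 RPM for LDM, while miR-34b-3p and miR-219-3p had no read in PL.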

How the data were processed

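Small RNA libraries of PMM and LDM, with 1 library per muscle, were compared. The deposited table of conserved miRNAs holds whole read counts that the authors did not normalize, with marks where no read was found (118 of 456 cells, taken as 0). The authors kept reads of 16 to 29 nt with a 3' adapter, aligned them (BLAST) with miRBase 19.0 hairpins from pig plus 24 further mammals, then with the genome Sscrofa10.2 (Sscrofa10 in the table's heading). The study normalized by mappable reads. Here the stated raw reads (PL 9.17 M, PMM 18.46 M, LDM 16.62 M) were used as totals. Whether isomiRs are counted in is not given in the sources used here.

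miRNAs take the most common number among the listed precursors and the listed arm. Identical sequences were merged, with the largest value kept, which removed 7 rows. Fisher's exact, chi-squared (no continuity correction), and Audic-Claverie tests (two-sided) set the reads of each miRNA against all other raw reads of its library, with Bonferroni adjustment over 108 miRNAs. Folds have exact binomial intervals, levels Poisson intervals, and shares Clopper-Pearson intervals. The 14 lists and members were chosen with earlier results of these data known. Named miRNAs are all those called with their other arms, the top 10 of both libraries by reads, the 5 with at least 100 reads and a fold nearest to 1, those in 1 library with at least 5 reads, up to 5 list members with at least 20 reads, and the chromosome 6 window. Other members of a list or seed, and the shared letters of arms, were taken up after the values were seen. Alternatives were other totals, read minimums, tests, adjustments, fold thresholds, and ways of merging. No genome of the build was used. Calculations used scipy 1.17.1, numpy 2.4.6, and pandas 2.3.3 in Python 3.11.15, with matplotlib 3.10.9 for plots.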

Additional observations from a re-analysis of the deposited data

How the results depend on the processing

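With 8 miRNAs called higher in PMM, the count was 5 with the summed conserved reads as total (with or without miR-26b-5p) or median-of-ratios size factors, and 4 under TMM. The calls lost were miR-6529-5p, miR-485-3p, and miR-409-3p, with log2 folds of 0.46, 0.75, and 0.82 with the summed reads, and miR-301a-3p with TMM (2.30). The 4 calls in LDM were kept under each total, and a fold threshold of 2 left 2 of them (miR-6529-3p and miR-2904-5p). The other settings kept both counts within 1.5 times. Benjamini-Hochberg adjustment added miR-200c-3p and miR-411c-3p, and every row of the table added miR-3591-3p in LDM, whose reads are split over 2 overlapping positions. miR-26b-5p turned to the side of LDM with the summed reads (log2 fold -0.0039, and -0.011 without itself in the total), the size factors (-0.25), and TMM (-0.26), as did miR-330-3p (-0.17 and -0.18) and miR-716a-3p (-0.11 and -0.12) with the size factors and TMM. miRNAs with reads in PMM only numbered 22 with no minimum and 3 with a minimum of 10 reads, and those in LDM only 16 and 0.

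Under the summed reads, the same without miR-26b-5p, the size factors, and TMM, the DLK1-DIO3 list had a median log2 fold of 0.61, 0.61, 0.37, and 0.35, and the skeletal muscle list of -0.34, -0.35, -0.59, and -0.60. With the size factors and TMM it was 0.92 and 0.90 for miR-34 and miR-449, 0.67 and 0.65 for the X chromosome cluster, and, on the side of LDM, -0.074 and -0.088 for miR-302 and miR-367. These shifts follow from the construction of the totals. No paired analysis was possible because there is 1 library for each muscle, and none could be left out. Calls at under 30 reads over both libraries numbered 0, so that differences of low miRNAs cannot be seen at this depth.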
